A study of Mus musculus with 20 samples.

Results

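The 10 genes described here encode the lysosomal scaffold Ragulator (Lamtor1, Lamtor2, Lamtor3, Lamtor4 and Lamtor5), the kinase mTOR and its partner Raptor (Mtor and Rptor), the GTPase Rheb (Rheb), and the tuberous sclerosis complex (TSC) proteins hamartin and tuberin (Tsc1 and Tsc2). They were taken by symbol from a table of 32400 Ensembl genes measured in mouse liver, and 10 of 10 were found. Liver mRNA was sequenced in 20 libraries of C57BL/6NTac mice in 3 groups. In the HFHF Flcn gRNA group (n = 8) mice ate a high-fat, high-fructose (HFHF) diet and were given a guide RNA against Flcn in an adeno-associated virus of the AAV8 type. In the HFHF control group (n = 7) mice ate the same diet and were given vehicle, phosphate-buffered saline (PBS). In the chow control group (n = 5) mice had no treatment and ate standard chow. Flcn encodes folliculin. The vehicle held no virus according to the labels, so guide and virus cannot be told apart, and the sources used here do not name the nuclease, the promoter that drives it, the age of the mice or the time on diet. Whether every library is from a separate mouse is not stated, so a p-value measures only the spread among libraries, which may be technical.

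Amino acids, growth factors and energy status meet on mTORC1, a kinase complex that promotes protein and lipid synthesis and restrains autophagy. When amino acids are plentiful, Rag GTPases held at the lysosome by Ragulator bring mTORC1 to the lysosomal surface, where Rheb switches the kinase on; the TSC complex keeps Rheb off until insulin signals release it. Folliculin and its FNIP partners dock on Ragulator and act on RagC and RagD, and this branch controls the MiT/TFE transcription factors (TFEB, TFE3), which bind the DNA letters CACGTG in promoters of many lysosomal genes. In liver, mTORC1 is known for its part in lipid synthesis after feeding.

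The promoters below are shown because the branch from folliculin to the MiT/TFE factors runs through CACGTG sites, and because the genes that carried these letters and those that did not can be set against their levels. RefSeq promoters (GRCm38.p6) were found for 9 of the 10 genes, and Lamtor3 is named only. Each was read over the 250 bases upstream of its RefSeq start site. For Rheb and Lamtor2 that site lay 263 and 123 bases downstream of the gene start in GENCODE M21. The Rheb window therefore lay wholly inside the gene as annotated there. The palindrome CACGTG, in capitals, occurred in Lamtor1 (chr7:101905587-101905836, plus strand), in Lamtor4 (chr5:138255232-138255481, plus strand) and in Rheb (chr5:24842362-24842611, minus strand). It was not among the letters of Lamtor5 (chr3:107278608-107278857, plus strand) or Tsc1 (chr2:28640983-28641232, plus strand), nor of Lamtor2, Mtor, Rptor or Tsc2.
Lamtor1: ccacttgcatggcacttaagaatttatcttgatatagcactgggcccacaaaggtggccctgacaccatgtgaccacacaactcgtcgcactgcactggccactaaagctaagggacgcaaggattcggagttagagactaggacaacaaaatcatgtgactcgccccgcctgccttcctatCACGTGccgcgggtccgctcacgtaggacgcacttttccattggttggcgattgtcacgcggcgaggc
Lamtor4: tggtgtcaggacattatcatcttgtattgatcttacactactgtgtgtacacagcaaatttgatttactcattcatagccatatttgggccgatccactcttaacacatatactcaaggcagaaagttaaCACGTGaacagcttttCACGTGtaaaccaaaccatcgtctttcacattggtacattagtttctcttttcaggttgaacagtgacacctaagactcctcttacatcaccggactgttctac
Lamtor5: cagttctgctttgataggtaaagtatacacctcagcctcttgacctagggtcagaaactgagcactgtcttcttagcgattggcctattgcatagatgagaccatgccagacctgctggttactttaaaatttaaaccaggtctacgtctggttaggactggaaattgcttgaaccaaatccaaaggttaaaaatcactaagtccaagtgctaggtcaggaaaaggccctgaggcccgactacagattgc
Tsc1: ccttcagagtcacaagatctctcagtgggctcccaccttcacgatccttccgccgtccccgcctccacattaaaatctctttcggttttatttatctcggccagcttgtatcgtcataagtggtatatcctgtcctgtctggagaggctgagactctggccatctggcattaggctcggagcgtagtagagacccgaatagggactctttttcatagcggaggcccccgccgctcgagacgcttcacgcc
Lamtor4 had 2 copies, beginning 120 and 104 bases upstream of the start site, Lamtor1 had 1 copy at 68 bases and Rheb 1 at 96 bases. Of 27025 genes with a promoter in the table, 6.86% had CACGTG in at least 1 window of this length (6.02% of 32851 promoters). The longer palindrome TCACGTGA, whose core is the same 6 letters, was in none of the 9 windows and in 0.907% of genes. The letters CATGTG, searched on both strands and overlapping none of the above, occurred in 2 copies each in Lamtor1 and Lamtor2 and in 13.8% of genes. A match of letters describes the window and is not a measured binding site.

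All 10 transcripts were measured in every library with 115 to 1238 estimated counts, and all 10 were among the 13667 genes that passed the filter on low counts. Library totals were 13974379 to 19586576 estimated counts for gRNA, 15244760 to 18194089 for HFHF control and 14131976 to 16285324 for chow. Flcn itself was at 17.8 ± 2.40 CPM in gRNA, 20.7 ± 2.98 CPM in HFHF control and 22.2 ± 6.03 CPM in chow (SD), and the gRNA group differed from HFHF control by -0.22 on the log2 scale (SE 0.12, adjusted p = 0.140, edgeR quasi-likelihood test; not passed in any of 27 further fits). Against chow the gRNA group was lower by this test (-0.32, SE 0.13, adjusted p = 0.04995), a call that held in 3 of the 27 further fits (adjusted p 0.0314 to 0.420). Hepatocyte markers (8 of 8 found, none at 0) summed to a median of 66960 CPM in gRNA (range 49860 to 81300), 57300 CPM in HFHF control (44390 to 64460) and 88010 CPM in chow (75680 to 96830). Markers of monocyte-derived macrophages (9 of 9, none at 0) summed to a median of 140 CPM in gRNA (85.2 to 216), 300.2 CPM in HFHF control (152 to 372) and 38.8 CPM in chow (29.0 to 46.6). Spp1 weighed most in the HFHF control sum, with means of 158 CPM there and 40.0 CPM in gRNA. Gpnmb went the other way, with means of 46.1 CPM in HFHF control and 72.3 CPM in gRNA. Of the 9 markers, 7 were called lower with gRNA and 9 higher on the diet. Of all genes tested, 19.0% were lower with gRNA and 28.1% higher on the diet. Markers of hepatic stellate cells (7 of 7, none at 0) summed to a median of 137 CPM in gRNA (118 to 180), 208.5 CPM in HFHF control (178 to 215) and 112 CPM in chow (96.6 to 126), and 5 of 7 were lower with gRNA and 7 of 7 higher on the diet. Cholangiocyte markers (5 of 5, none at 0) summed to a median of 41.3 CPM in gRNA (30.5 to 80.5), 203 CPM in HFHF control (93.0 to 227) and 25.8 CPM in chow (24.7 to 35.7), but most of each sum was Spp1, which the macrophage list also holds. Without Spp1 the other 4 summed to medians of 7.79 CPM in gRNA, 9.12 CPM in HFHF control and 8.16 CPM in chow, with overlapping ranges. Sox9 weighed most in that sum, with means of 5.92 CPM in gRNA, 9.05 CPM in HFHF control and 6.76 CPM in chow. Krt19 (-1.42 on the log2 scale), Epcam (-0.99) and Sox9 (-0.61) were each called lower with gRNA. On the diet Krt19 (1.48) and Epcam (1.25) were called higher and Sox9 (0.42) was not. Krt7 was under the filter on low counts. Sums of Kupffer cell (6 of 6) and sinusoidal endothelial markers (7 of 7) overlapped between all groups, and those of lymphocytes (8 of 8) were 7.46 to 17.3 CPM in gRNA, 7.52 to 16.3 CPM in HFHF control and 5.50 to 7.11 CPM in chow; none of these markers was at 0 in all libraries. In bulk tissue, fewer cells of a type and less RNA per cell cannot be told apart. The title of gRNA replicate 8 differs from the others in its second field, whose meaning is not given, and values are given with and without that library where it decides them.

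Short and long genes were also balanced differently between the diets. The protein-coding genes tested were put into 5 classes of equal size by the length of their annotated exons. The median log2 CPM of the shortest class (180 to 2508 bases) minus that of the longest (7657 to 123179 bases) was -1.10 to -0.62 in gRNA libraries, -0.89 to -0.64 in HFHF control libraries and -1.14 to -1.07 in chow libraries, so that every HFHF control library lay above every chow library. The highest of the 20 values, -0.62, was that of gRNA replicate 8. Between HFHF control and chow the median gene of the shortest class differed by 0.12 on the log2 scale and that of the longest by -0.16, while between gRNA and HFHF control these medians were -0.02 and 0.04. Lamtor2, Lamtor4 and Lamtor5 belong to the shortest class, Lamtor1 to the next, Lamtor3 to the middle one, and Mtor, Rptor, Rheb, Tsc1 and Tsc2 to the longest. A fit that sets 10 length classes equal between libraries, added after seeing the data, is therefore given beside the results it changes; it also removes any change that short or long genes truly share.

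Tsc1 was the 1 gene of the 10 that differed past the threshold between gRNA and HFHF control livers, and it was 2.02-fold higher in gRNA livers. In HFHF control livers Tsc1 was lower than in chow livers, as were Rptor and, narrowly, Tsc2, whereas Lamtor3, Lamtor4, Lamtor5 and Mtor were higher. Rheb was the steadiest of the 10, with the same mean in all 3 groups within its spread. In gRNA against HFHF control 1 of 10 was higher, 0 were lower and 9 did not pass, of which 3 had an unadjusted p under 0.05 (edgeR quasi-likelihood test with Benjamini-Hochberg adjustment over 13667 genes, threshold 0.05), where 38.6% of all genes tested passed, 19.6% higher and 19.0% lower. In HFHF control against chow 4 were higher, 3 lower and 3 did not pass, against 57.0% of all genes (28.1% higher, 28.9% lower). In gRNA against chow 6 were higher, 0 lower and 4 did not pass, against 42.6% of all genes (20.9% higher, 21.7% lower). The groups did not overlap for 1 gene upward and 0 downward with gRNA (5.04% and 6.01% of all genes), and for 4 upward and 0 downward in gRNA against chow (9.01% and 8.98%). The count with gRNA, 1 of 10, was a smaller share than that of all genes in this fit but depended on single libraries. Without gRNA replicate 8, 4 of 10 were higher (Mtor, Rptor, Tsc1 and Tsc2), against 38.6% of all genes called in either direction (2545 of 13667 higher). The count was 3 without gRNA replicate 1 (36.7% of all genes called, 2456 of 13667 higher) or HFHF control replicate 7 (34.5%, 2381 higher). It was 2 without gRNA replicate 3 (36.2%, 2517 higher) or gRNA replicate 5 (37.5%, 2495 higher). The count with diet, 7 of 10, was 5 without chow replicate 4 (53.4% of all genes called) and 3 with length classes set equal (56.0% of all genes called). The median log2 fold change of the 10 was 0.14 with gRNA (0.0096 over all genes), 0.13 with diet (-0.01 over all genes) and 0.27 for gRNA against chow (0.0034 over all genes). Upper-quartile scaling moved the split of all genes to 1942 higher and 3196 lower with gRNA, against 2673 and 2597 with TMM scaling, and to 4619 higher and 2991 lower with diet, against 3847 and 3947. With it the members' counts were again 1 higher and 0 lower with gRNA, and were 5 higher and 2 lower with diet, Lamtor1 joining the higher genes and Tsc2 leaving the lower ones.

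**Figure D1:**
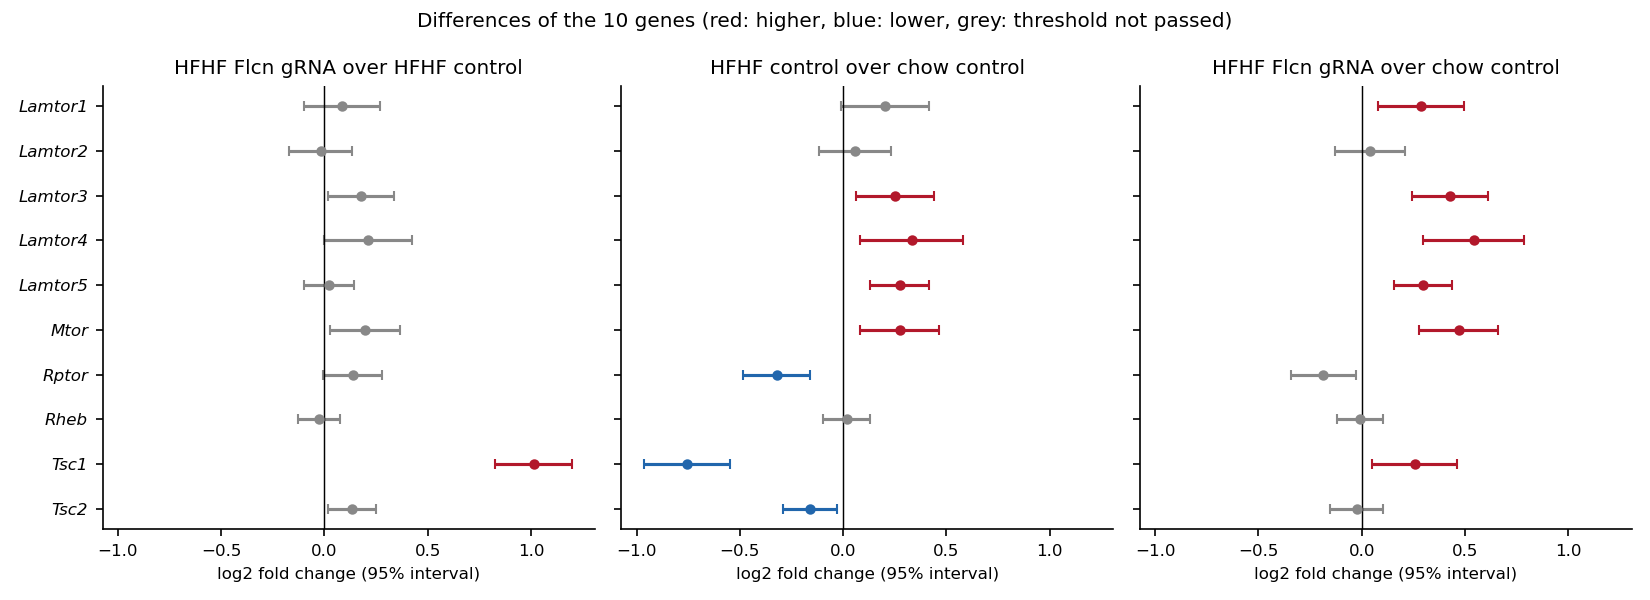
Log2 fold changes with 95% intervals (horizontal axis) of the 10 genes (vertical axis) in the 3 comparisons, coloured by call. Tsc1 lies at 1.01 in gRNA over HFHF control, apart from the other 9, and at -0.76 in HFHF control over chow, where Lamtor3, Lamtor4, Lamtor5 and Mtor lie between 0.25 and 0.33.

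**Figure D2:**
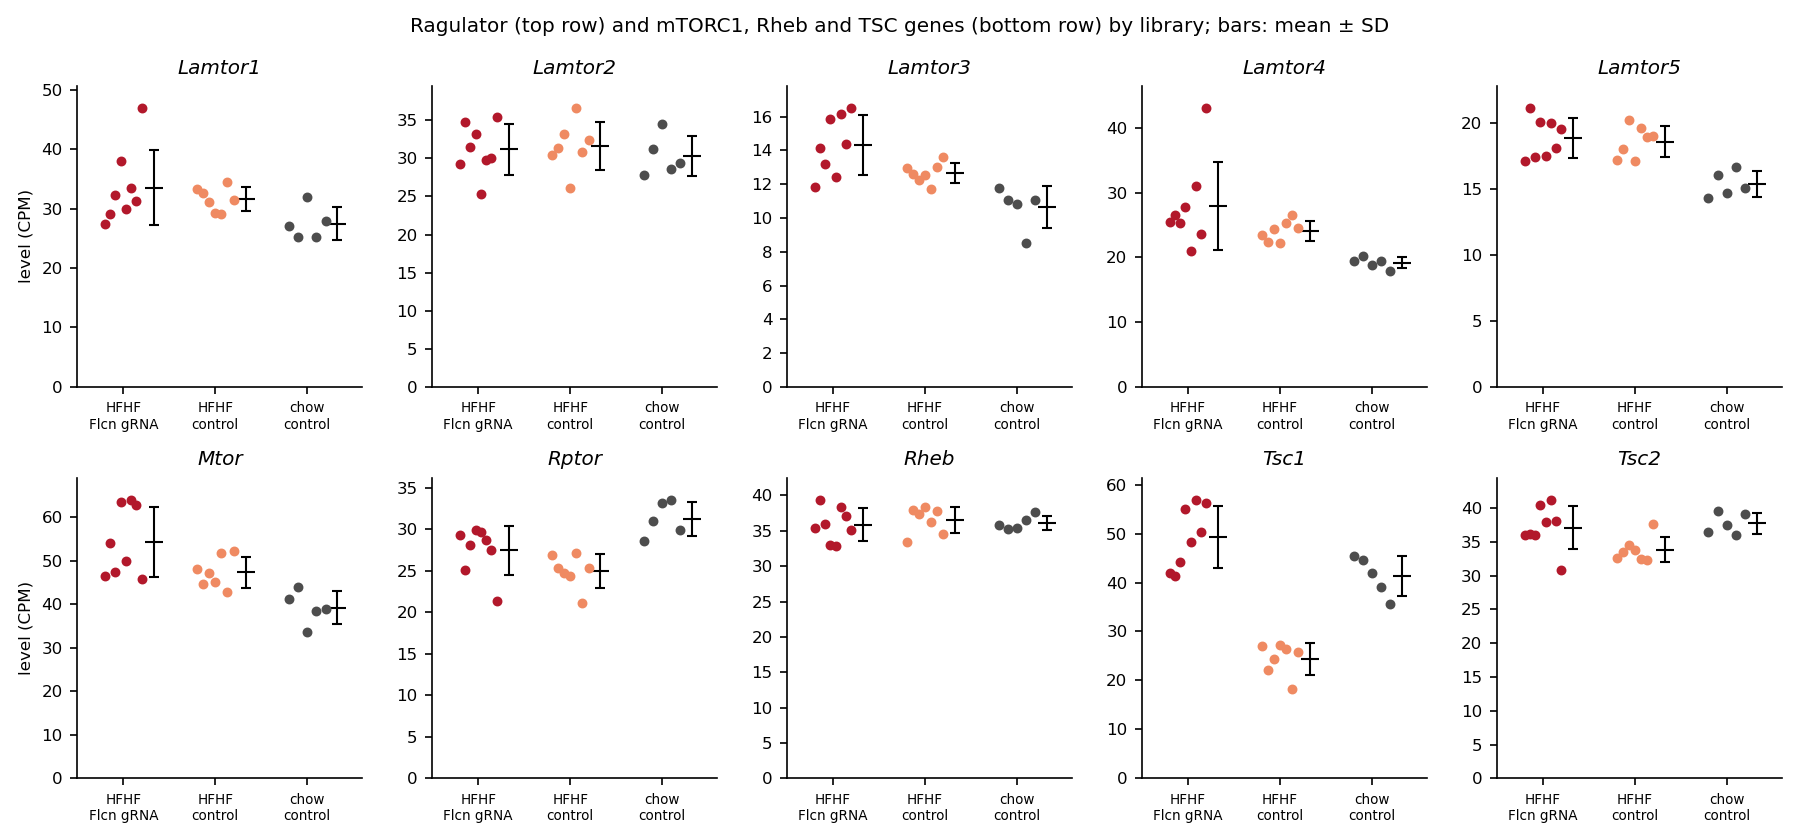
Level of each gene in CPM (vertical axes, from 0) in each of the 20 libraries, by group, with mean ± SD beside the points. The 7 HFHF control libraries of Tsc1 lie between 18.2 and 27.3 CPM, under every library of both other groups, and the highest Lamtor4 point, 43.0 CPM, is gRNA replicate 8.

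Of the 5 Ragulator genes, Lamtor3, Lamtor4 and Lamtor5 were higher in HFHF control than in chow livers, and those 3 and Lamtor1 were higher in gRNA than in chow livers. With gRNA against HFHF control 0 of 5 passed in edgeR's quasi-likelihood test, DESeq2 or limma-voom, and 1 of 5 had an unadjusted p under 0.05 in edgeR. Their summed level was 125.8 ± 17.3 CPM in gRNA, 119 ± 5.55 CPM in HFHF control and 103.0 ± 4.80 CPM in chow (SD). Per kilobase of annotated exons, Lamtor2 was the most abundant of the 10 genes (24.9 to 25.9 CPM per kilobase as group means), Lamtor4 (14.7 to 21.5) and Lamtor5 (17.3 to 21.3) followed with overlapping ranges, Lamtor1 was at 8.55 to 10.4 and Lamtor3 lowest of the complex at 2.57 to 3.45. The length is that of all exons annotated for any transcript of a gene, so a level is understated where part of it is not expressed. Which transcripts were expressed was not tested. In plain CPM Lamtor1 averaged 33.6 in gRNA, 31.6 in HFHF control and 27.5 in chow, and Lamtor2 averaged 31.2, 31.6 and 30.3. The proteins assemble in equal numbers in the complex.

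Lamtor4 encodes a small subunit that pairs with LAMTOR5 inside the complex. Lamtor4 was at 21.0, 25.97 and 43.0 CPM (lowest, median and highest) in gRNA libraries, at 22.3, 24.3 and 26.6 CPM in HFHF control libraries, and at 19.4, 20.2, 18.8, 19.5 and 17.9 CPM in chow libraries. All 7 HFHF control libraries and all 8 gRNA libraries lay above all 5 chow libraries, while gRNA and HFHF control overlapped. The difference was 0.21 for gRNA against HFHF control (SE 0.10, adjusted p = 0.113), 0.33 for HFHF control against chow (SE 0.12, adjusted p = 0.0226) and 0.54 for gRNA against chow (SE 0.12, adjusted p = 0.000845). Without gRNA replicate 8 the first of these was 0.089, and without gRNA replicate 5, the lowest library, it was 0.25 and passed (adjusted p = 0.0450). Lamtor4, the gene with 2 CACGTG copies, and Lamtor5, with none, were both higher on the diet in this fit. Lamtor4 was not called with length classes set equal, and any bearing of these letters on the levels was not tested.

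Lamtor5, also known as HBXIP, was at 17.1, 18.8 and 21.1 CPM in gRNA libraries, at 17.1, 18.9 and 20.2 CPM in HFHF control libraries and at 14.3, 16.1, 14.7, 16.6 and 15.0 CPM in chow libraries. Both HFHF groups lay wholly above chow and covered nearly the same range as each other. HFHF control differed from chow by 0.28 (SE 0.07, adjusted p = 0.00166), and gRNA from HFHF control by 0.02 (95% interval -0.10 to 0.15). Lamtor4 and Lamtor5 were the 2 of 10 genes with no overlap upward on the diet, where 18.8% of all genes had none.

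Lamtor3, or MP1, which also binds kinases of the MAP kinase cascade, was the least abundant subunit. Its levels were 11.8, 14.3 and 16.5 CPM in gRNA libraries, 11.7, 12.6 and 13.6 CPM in HFHF control libraries, and 11.8, 11.1, 10.8, 8.54 and 11.1 CPM in chow libraries. Of the 8 gRNA libraries 5 lay above all HFHF control libraries, and 6 of 7 HFHF control libraries lay above all chow libraries. The gRNA difference was 0.18 (SE 0.08, adjusted p = 0.0771) and passed without gRNA replicate 1 (adjusted p = 0.0434). With diet Lamtor3 was higher by 0.25 (SE 0.09, adjusted p = 0.0219), a call lost without chow replicate 4, its lowest library (adjusted p = 0.0509). Against chow the gRNA libraries were higher by 0.43 (SE 0.09, adjusted p = 0.000538), in 8 of 8 libraries.

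Lamtor1, which carries the lipid anchor that ties Ragulator to the lysosomal membrane, was at 27.4, 31.8 and 46.9 CPM in gRNA libraries, at 29.0, 31.5 and 34.5 CPM in HFHF control libraries and at 27.1, 25.3, 31.9, 25.2 and 27.9 CPM in chow libraries. The groups overlapped, and the highest value was again gRNA replicate 8. It differed by 0.08 with gRNA (adjusted p = 0.490; -0.0072 without replicate 8), by 0.20 with diet (SE 0.10, adjusted p = 0.0984) and by 0.29 for gRNA against chow (SE 0.10, adjusted p = 0.0256). The diet difference passed without chow replicate 3 (adjusted p = 0.0261) and, each taken out alone, without gRNA replicate 1, gRNA replicate 8 or HFHF control replicate 5, and also under upper-quartile scaling (0.0172) and with only the groups compared (0.0165). Lamtor2, the subunit that pairs with LAMTOR3, passed in no comparison: it averaged 31.2 ± 3.31 CPM in gRNA, 31.6 ± 3.15 CPM in HFHF control and 30.3 ± 2.67 CPM in chow, with differences of -0.02 with gRNA (95% interval -0.17 to 0.13) and 0.06 with diet (95% interval -0.12 to 0.23).

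The diet differences of the Ragulator genes moved with the balance of short and long genes. Over the 20 libraries the mean log2 CPM of Lamtor1 to Lamtor5 followed that balance with r = 0.834, a description in which libraries of 1 group share diet and treatment. With length classes set equal, Lamtor5 was still higher on the diet (0.15, adjusted p = 0.0457), whereas Lamtor3 (0.21, adjusted p = 0.0578) and Lamtor4 (0.21, adjusted p = 0.0571) no longer passed and Lamtor2 was at -0.07, opposite in sign to its value above. In that fit Lamtor3 and Lamtor4 passed with gRNA, at 0.20 each (adjusted p = 0.0487 and 0.0458), so 3 of 10 genes were higher instead of 1. Of all genes tested, 39.2% were called there in either direction (2658 of 13667 higher). Lamtor3, Lamtor4 and Lamtor5 were also higher in gRNA than in chow in that fit (0.41, 0.40 and 0.17), and Lamtor1 was not called (0.23, adjusted p = 0.0659). Hepatocyte, macrophage and stellate marker sums differed between the diets as well, with no overlap, and their part in these results was not tested. Near-identical processed pseudogenes exist for Lamtor1, Lamtor3, Lamtor4 and Lamtor5 (91.3 to 99.5% identity over 228 to 486 bases), so their counts are uncertain to the extent that reads were shared. Counts were not whole in 1 of 20 libraries for Lamtor1 and in 0 of 20 for Lamtor3, Lamtor4 and Lamtor5. Whole counts do not show where a shared read was placed.

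**Figure D3:**
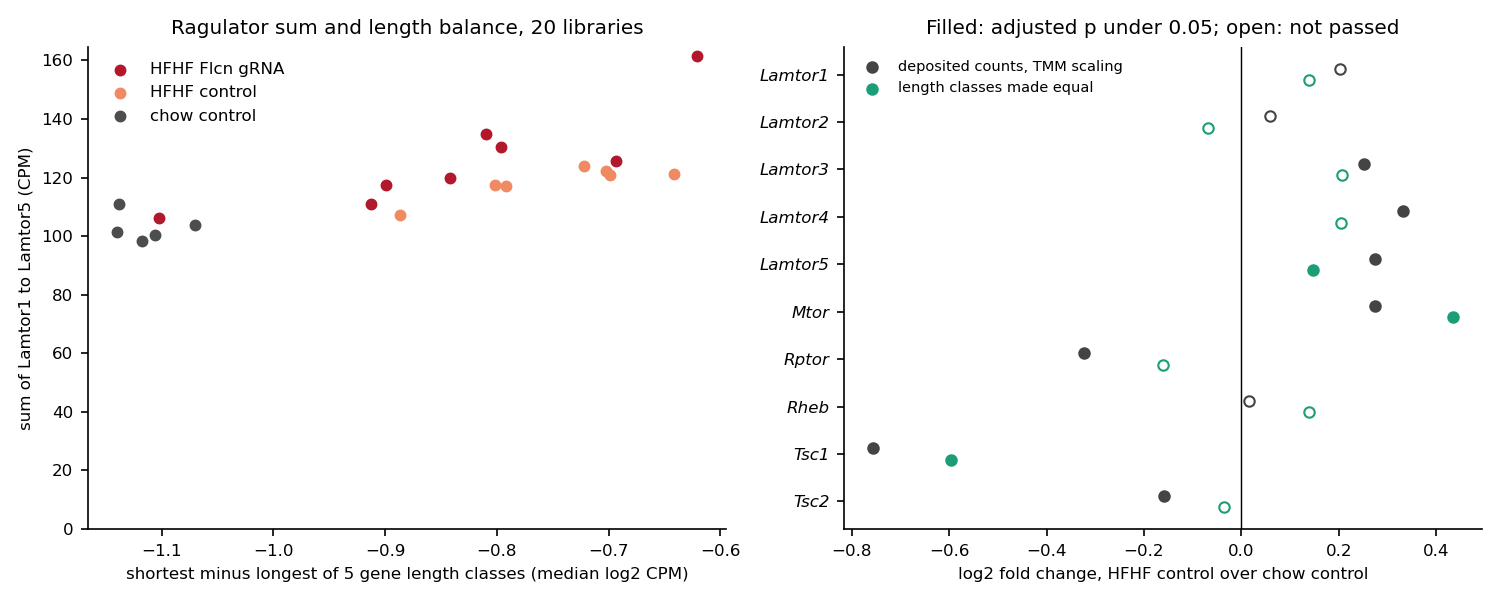
Left, summed Ragulator level in CPM (vertical axis, from 0) against the balance of short and long genes in log2 CPM (horizontal axis) in 20 libraries coloured by group. Right, log2 fold change of HFHF control over chow for the 10 genes from the deposited counts and with length classes set equal, filled where the adjusted p passed. Lamtor5, Mtor and Tsc1 are filled in both, and gRNA replicate 8 is the point at 161 CPM.

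Mtor, the kinase itself, was higher in both HFHF groups than in chow livers. Its levels were 45.8, 51.9 and 64.0 CPM in gRNA libraries, 42.8, 47.1 and 52.2 CPM in HFHF control libraries, and 41.2, 43.9, 33.7, 38.3 and 38.9 CPM in chow libraries. Of the 8 gRNA libraries 4 lay above every HFHF control library, and all 8 lay above every chow library. Mtor differed by 0.20 with gRNA (SE 0.08, adjusted p = 0.0618), by 0.27 with diet (SE 0.09, adjusted p = 0.0157) and by 0.47 for gRNA against chow (SE 0.09, adjusted p = 0.000294). The gRNA difference passed, each library taken out alone, without gRNA replicate 1 (adjusted p = 0.0453), gRNA replicate 3 (0.0412), gRNA replicate 8 (0.0376) or HFHF control replicate 7 (0.0498). Mtor is a long gene that was higher on the diet while the median long gene was lower, and with length classes set equal its diet difference was 0.43 (adjusted p = 0.000842).

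Rptor, which encodes the Raptor subunit that presents substrates to mTOR, went the other way on the diet. It was at 21.3, 28.4 and 29.97 CPM in gRNA libraries, 21.1, 25.3 and 27.2 CPM in HFHF control libraries, and 28.6, 31.0, 33.1, 33.6 and 29.96 CPM in chow libraries. All 7 HFHF control libraries lay below all chow libraries, as they did for Tsc1, so that 2 of 10 genes had no overlap downward, against 18.1% of all genes. The diet difference was -0.32 (SE 0.08, adjusted p = 0.00127) and was -0.16 with length classes set equal (adjusted p = 0.0605). With gRNA Rptor differed by 0.14 (SE 0.07, adjusted p = 0.127), and 6 of 8 gRNA libraries lay above all HFHF control libraries; without replicate 8, the lowest gRNA library, the difference was 0.17 and passed (adjusted p = 0.0224). Against chow it was at -0.19 (SE 0.08, adjusted p = 0.0532), and passed as lower without gRNA replicate 4 (adjusted p = 0.0426) or HFHF control replicate 6 (0.0407).

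Because Mtor and Rptor encode partners in 1 complex, their ratio per kilobase was also taken in each library. Mtor over Rptor was 2.65 ± 0.376 in gRNA, 2.53 ± 0.150 in HFHF control and 1.68 ± 0.242 in chow (SD). The lowest HFHF control library, at 2.35, and the lowest gRNA library, at 2.11, both lay above the highest chow library, at 1.92. Both transcripts belong to the longest class of genes, and the ratio cancels library size.

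Rheb, the GTPase that switches mTORC1 on, was nearly level across the study. It was at 32.8, 35.6 and 39.4 CPM in gRNA libraries, 33.5, 37.4 and 38.3 CPM in HFHF control libraries, and 35.8, 35.2, 35.3, 36.5 and 37.7 CPM in chow libraries, which overlapped throughout. Its SD over the 20 libraries was 0.074 on the log2 scale, at percentile 0.278 of all genes tested, whose median SD was 0.29. Differences were -0.03 with gRNA (95% interval -0.13 to 0.08), 0.02 with diet (-0.10 to 0.13) and -0.0084 for gRNA against chow (-0.12 to 0.10). The sign of the last was positive under upper-quartile scaling, without the low-count filter, with only the groups compared and with length classes set equal. Rheb carries CACGTG in its promoter window as Lamtor4 does, and any bearing of these letters on its level was not tested. Its counts were not whole in 8 of 20 libraries, so these are estimates in which reads were divided between genes.

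Tsc1 encodes hamartin, which stabilises tuberin and so keeps the brake on Rheb in place. Its levels were 41.4, 49.2 and 56.9 CPM in gRNA libraries, 18.2, 25.7 and 27.3 CPM in HFHF control libraries, and 45.4, 44.6, 41.8, 39.0 and 35.6 CPM in chow libraries. Every HFHF control library lay below every library of both other groups. In gRNA against HFHF control Tsc1 was higher by 1.01 (SE 0.09, 95% interval 0.82 to 1.20, adjusted p = 3.62e-08), and its p ranked 42 among the 13667 genes. All 8 gRNA libraries lay above all 7 HFHF control libraries, and the exact permutation test gave p = 0.000311, the smallest that 6435 regroupings allow (0.00842 adjusted over 30 tests, two-sided). In HFHF control against chow Tsc1 was lower (-0.76, SE 0.10, adjusted p = 1.55e-06), in 7 of 7 libraries. These comparisons share the HFHF control libraries, so a low HFHF control mean enters both.

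The level of Tsc1 in gRNA livers was 49.3 ± 6.38 CPM, against 41.3 ± 4.07 CPM in chow livers (SD). That difference was 0.26 (SE 0.10, adjusted p = 0.0405), with 5 of 8 gRNA libraries above all chow libraries. The call was lost with limma-voom (adjusted p = 0.0503) and, each taken out alone, without gRNA replicates 4, 6 or 7 or chow replicates 4 or 5 (adjusted p 0.0563 to 0.0874), and the exact permutation test gave 0.0357 (0.0663 adjusted over 30 tests). With length classes set equal the differences of Tsc1 were 0.98 with gRNA, -0.60 with diet and 0.38 for gRNA against chow, all past the threshold.

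Tsc2, which encodes tuberin, the subunit that turns Rheb off, moved little beside its partner. It was at 30.8, 37.0 and 41.2 CPM in gRNA libraries, 32.3, 33.4 and 37.6 CPM in HFHF control libraries, and 36.4, 39.6, 37.5, 36.0 and 39.1 CPM in chow libraries. Its difference with gRNA was 0.13 (SE 0.06, adjusted p = 0.0623), and passed without gRNA replicate 8, its lowest gRNA library (0.16, adjusted p = 0.0141), or without HFHF control replicate 7, its highest HFHF control library (0.16, adjusted p = 0.0315). On the diet Tsc2 was lower (-0.16, SE 0.06, adjusted p = 0.0368), with 6 of 7 libraries below all chow libraries. That call did not hold in 12 of 20 fits with a library left out (adjusted p up to 0.213), with relative log expression factors (0.0553), upper-quartile scaling (0.391), no filter (0.189), DESeq2 (0.0519) or length classes set equal (-0.04, adjusted p = 0.629). Against chow the gRNA group was at -0.02 (95% interval -0.15 to 0.10), with a positive sign under upper-quartile scaling, no filter and length classes set equal. Tsc2 shares 693 bases of exon with Pkd1 on the opposite strand, and the use of strand in counting is not given, so reads there cannot be told apart. Its counts were not whole in 20 of 20 libraries, so they too are estimates in which reads were divided between genes.

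Tsc1 over Tsc2, per kilobase, was 1.09 ± 0.175 in gRNA, 0.588 ± 0.0799 in HFHF control and 0.891 ± 0.0990 in chow (SD). The highest HFHF control library, at 0.674, lay below the lowest gRNA library, at 0.932, and below the lowest chow library, at 0.739. Among gRNA libraries replicate 8 was highest at 1.49, and the other 7 lay between 0.932 and 1.12. The ratio separated HFHF control from both other groups in every library, as Tsc1 alone already did, while Tsc2 alone overlapped between gRNA and HFHF control. The ratio is therefore no evidence beyond the levels of Tsc1.

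**Figure D4:**
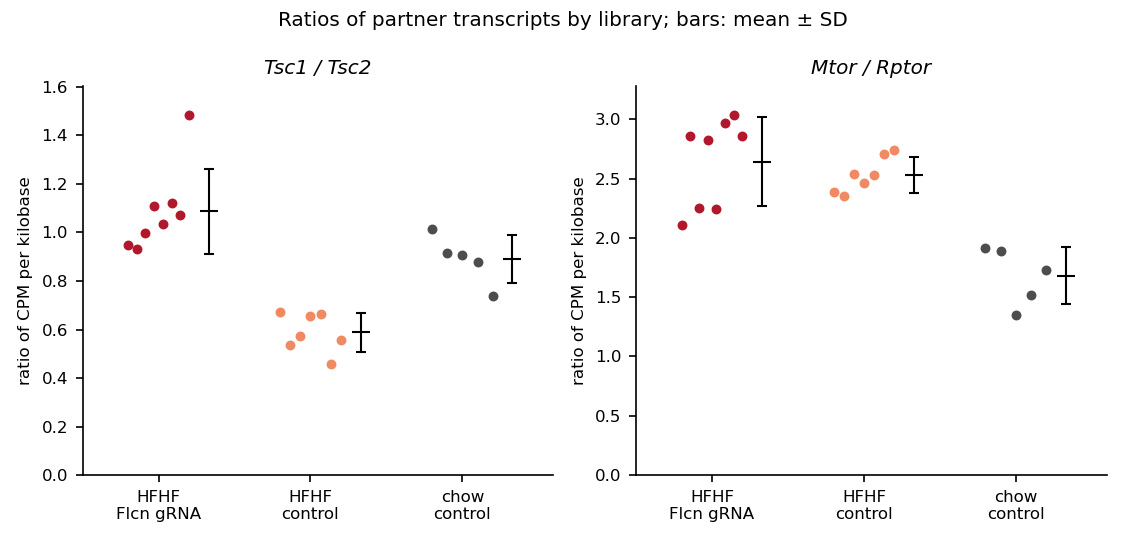
Ratio of CPM per kilobase (vertical axes, from 0) of Tsc1 to Tsc2 and of Mtor to Rptor in each library by group, with mean ± SD. HFHF control is lowest for Tsc1 over Tsc2 (0.459 to 0.674), and chow is lowest for Mtor over Rptor (1.35 to 1.92).

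Libraries of 1 group also varied together in some pairs of genes. After each group's mean was removed, the log2 levels of Mtor and Tsc2 followed each other over the 20 libraries (r = 0.664, and 0.616 without gRNA replicate 8), as did those of Lamtor1 and Lamtor3 (0.659 and 0.611). Lamtor1 with Lamtor4 was at 0.681, or 0.323 without replicate 8, and Lamtor4 with Rptor at -0.616, or -0.233 without it. Depth and length balance differed between libraries of 1 group, the balance from -1.10 to -0.62 in gRNA. Their part in these values, and that of preparation, was not tested.

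The genes whose log2 levels were most like the mean of Lamtor1 to Lamtor5 over the 20 libraries were Prdx2 (r = 0.960), Acot13 (0.958), Uqcr10 (0.957), Fis1 (0.955) and Gabarap (0.951), a peroxiredoxin, an acyl-CoA thioesterase, a respiratory chain subunit, a mitochondrial fission protein and an autophagy protein of the ATG8 family. Their exons total 584 to 3050 bases, beside 884 to 4151 bases for the Ragulator genes. Those most like the mean of Tsc1 and Tsc2 were Slco2b1 (r = 0.957), Aifm1 (0.952), Dpp4 (0.948), Hspa9 (0.945) and Mfn1 (0.942), an organic anion transporter, a mitochondrial flavoprotein, a dipeptidyl peptidase, a mitochondrial chaperone and a mitochondrial fusion protein, with exons of 4006 to 6319 bases. With each group's mean removed, r was 0.895 to 0.955 for the first 5 genes and 0.567 to 0.694 for the second 5, so differences between groups added little to the first and more to the second.

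The lists of other genes of the pathway are given with their counts, and in brackets with the fewest and most calls over 27 further fits (other settings and each library left out). Of all genes tested, 19.6% were higher and 19.0% lower with gRNA, and 28.1% were higher and 28.9% lower on the diet. With no low-count filter 22.5% of all genes were called with gRNA, against 38.6% with it. On the diet these shares were 34.8% and 57.0%. The Rag and FLCN-FNIP list had 4 of its 6 tested genes higher with gRNA (4 to 4) and 0 lower (0 to 0), with a median of 0.53; Rragb, the other of the 7 listed, was under the filter. Beyond Rragd and Fnip2, whose log2 differences of 1.94 each were the largest of the list, Fnip1, a partner of folliculin, was at 62.2 ± 6.39 CPM in gRNA, 38.2 ± 4.86 CPM in HFHF control and 44.5 ± 5.52 CPM in chow, higher with gRNA by 0.70 (SE 0.08, adjusted p = 1.17e-06). Rragc, which encodes the RagC that Ragulator holds, was at 52.3 ± 7.33 CPM in gRNA, 41.1 ± 1.36 CPM in HFHF control and 32.6 ± 1.64 CPM in chow, higher with gRNA by 0.35 (SE 0.07, adjusted p = 0.000459) and with diet by 0.33 (SE 0.08, adjusted p = 0.00131). The GATOR and KICSTOR complexes, which relay amino acid shortage to the Rags, had 2 of 12 higher (2 to 3) and 1 lower (1 to 2) with gRNA, and 1 higher (1 to 1) and 7 lower (5 to 8) on the diet, where the median was -0.27. Depdc5 of GATOR1 was higher with gRNA (0.25, SE 0.07, adjusted p = 0.00801) and lower on the diet (-0.58, SE 0.08, adjusted p = 2.76e-06). Wdr59 of GATOR2 was likewise higher with gRNA (0.30, SE 0.08, adjusted p = 0.00597) and lower on the diet (-0.63, SE 0.09, adjusted p = 4.08e-06). With length classes set equal the diet count of this list was again 1 higher and 7 lower.

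For the next lists the shares of all genes tested were again 19.6% higher and 19.0% lower with gRNA, and 28.1% and 28.9% on the diet. Amino acid sensors had 0 of 7 higher (0 to 0) and 1 lower (1 to 1) with gRNA, the arginine sensor family member Castor2 (-0.36, SE 0.11, adjusted p = 0.0124). On the diet 4 were higher (2 to 4; 2 without HFHF control replicate 3 or 6) and 1 lower (0 to 1; 0 without chow replicate 1), with the leucine sensor Sesn2 higher by 0.81 (SE 0.16, adjusted p = 0.000187). Among partners of mTOR, 2 of 10 were higher (1 to 2; 1 under upper-quartile scaling and with no low-count filter) and 0 lower (0 to 1) with gRNA, and 1 was higher (0 to 2) and 5 lower (2 to 5) on the diet; the 5 were 2 under upper-quartile scaling and 3 with no low-count filter or without chow replicate 1 or 2. Deptor, an inhibitory partner of mTOR, was at 301 ± 46.1 CPM in gRNA, 240 ± 14.2 CPM in HFHF control and 330.1 ± 23.8 CPM in chow, a difference of 0.33 with gRNA (SE 0.08, adjusted p = 0.00235) and -0.46 with diet (SE 0.09, adjusted p = 0.000146). Rictor, which defines the other mTOR complex, was lower on the diet (-0.50, SE 0.09, adjusted p = 4.94e-05). Of the 8 BORC subunits, partners of Ragulator in placing lysosomes, 2 were higher (1 to 2) and 0 lower (0 to 1) with gRNA, and 3 were higher (1 to 3) and 0 lower (0 to 1) on the diet. The 2 with gRNA were 1 without gRNA replicate 2, 6 or 8 or HFHF control replicate 1, 2, 6 or 7, under upper-quartile scaling and with no low-count filter, and the 3 on the diet were 1 with length classes set equal or without HFHF control replicate 3 or 7 or chow replicate 5. Of the further TSC and Rheb genes, 0 of 2 passed with gRNA (each also above an unadjusted p of 0.05 in edgeR's quasi-likelihood test) and Rhebl1, at under 1 CPM, was higher on the diet.

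Direct substrates and translation effectors of mTORC1 had 4 of 12 higher (2 to 4; 2 without gRNA replicate 1 or HFHF control replicate 7, under upper-quartile scaling and with no low-count filter) and 1 lower (1 to 2; 2 under upper-quartile scaling) with gRNA. On the diet 2 were higher (2 to 4, with 4 without chow replicate 1) and 5 lower (5 to 5). Of all genes tested, 19.6% were higher and 19.0% lower with gRNA, and 28.1% and 28.9% on the diet. Pdcd4, a repressor of translation initiation that S6 kinase marks for degradation, was at 158 ± 8.63 CPM in gRNA, 78.5 ± 7.11 CPM in HFHF control and 156 ± 36.9 CPM in chow. It was higher with gRNA by 1.01 (SE 0.10, adjusted p = 6.45e-08) and lower on the diet (-0.99, SE 0.10, adjusted p = 6.77e-08). Eif4ebp2, a 4E-BP that mTORC1 inactivates, was at 234 ± 17.4 CPM in gRNA, 178 ± 13.7 CPM in HFHF control and 253 ± 20.1 CPM in chow. It was higher with gRNA (0.40, SE 0.06, adjusted p = 3.62e-05) and lower on the diet (-0.51, SE 0.07, adjusted p = 2.53e-06), while its paralog Eif4ebp1 differed by -0.0065 with gRNA and was higher on the diet by 0.59 (SE 0.12, adjusted p = 0.000319). Inputs from insulin, AKT and AMPK had 8 of 16 higher (4 to 8; 4 under upper-quartile scaling and 5 with no low-count filter) and 1 lower (1 to 1) with gRNA, and 2 higher (2 to 4; 4 under upper-quartile scaling) and 8 lower (6 to 9) on the diet. Insr, the insulin receptor, was at 132 ± 7.04 CPM in gRNA, 107 ± 8.45 CPM in HFHF control and 168 ± 14.2 CPM in chow, higher with gRNA by 0.29 (SE 0.06, adjusted p = 0.000403) and lower on the diet (-0.65, SE 0.07, adjusted p = 4.00e-08). The AMPK subunit Prkab2 had the opposite signs, -0.84 with gRNA (SE 0.17, adjusted p = 0.000502) and 1.19 with diet (SE 0.21, adjusted p = 4.65e-05). These comparisons share the HFHF control libraries, and hepatocyte, macrophage and stellate marker sums also lay between chow and HFHF control values in gRNA livers by their medians; their part in these results was not tested.

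**Figure D5:**
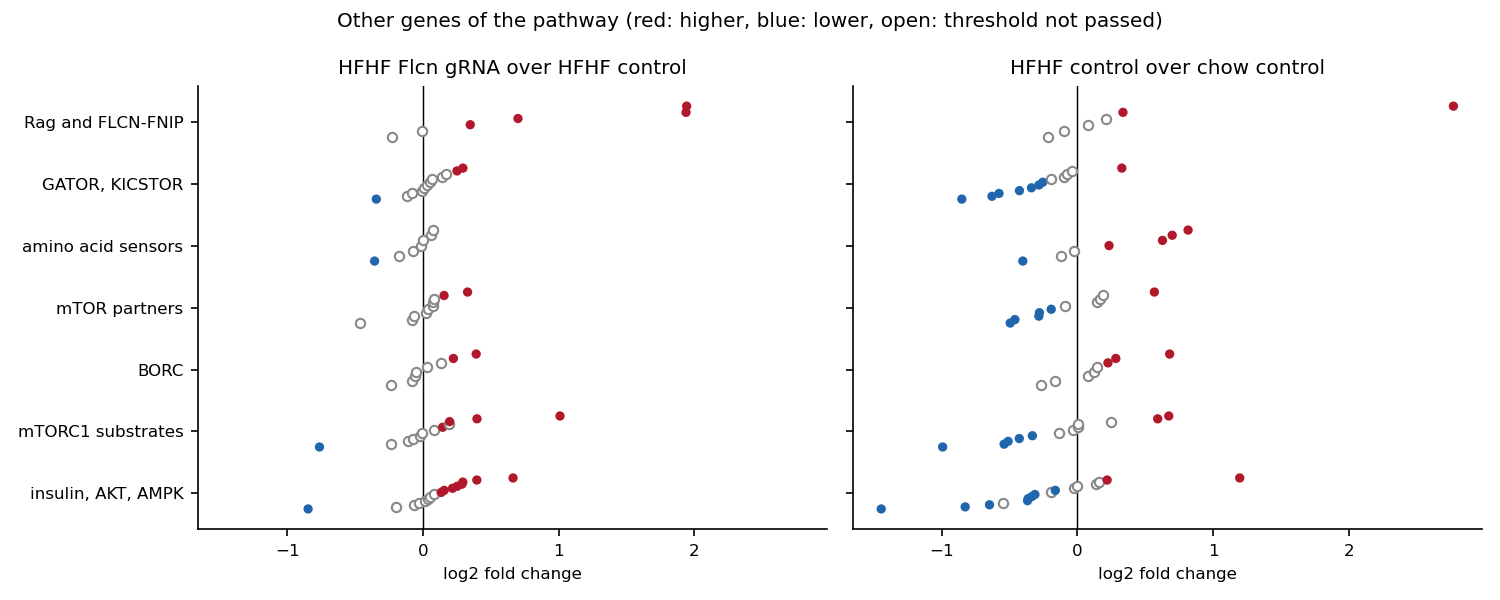
Log2 fold changes (horizontal axes) of the other pathway genes, 1 point a gene, in rows by list, for gRNA over HFHF control and HFHF control over chow. With gRNA most points lie near 0, and those farther out include Rragd and Fnip2 near 1.94, Pdcd4 at 1.01, Fnip1 at 0.70 and Prkab2 at -0.84. On the diet 7 of 12 GATOR and KICSTOR genes are blue, where 28.9% of all genes tested were lower, and the farthest point is Rragd at 2.77.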

How the data were processed

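Per the labels' protocols, liver RNA was purified by Trizol and bead steps, mRNA libraries were made with a KAPA HyperPrep kit and adapters with molecular identifiers, and reads were single-end. The deposited table holds expected counts, which are estimates and may be fractional (77.8% of those reaching 1 had no fraction). The build was GRCm38 per the submitters' processing notes. Aligner, counter, annotation, and whether strand and identifiers were used, were not given in the sources used here; intervals may understate error if copies were counted. Names and exon lengths came from GENCODE M21. A column that matched no label (1) was not used, and 22 construct features (2.2e-06% of counts) were left out.

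Counts were rounded. Genes were kept with filterByExpr, libraries were scaled with TMM factors, and all 3 groups entered 1 quasi-likelihood fit (edgeR 4.0.16, R 4.3.3; 17 residual degrees of freedom) with Benjamini-Hochberg adjustment over 13667 genes and a threshold of 0.05. Fold changes come from this fit as log2 values with SE. CPM use the library size after TMM adjustment; levels between genes are given per kilobase of annotated exons. Exact two-sided permutation tests compared mean log2 CPM (prior count 2; scipy 1.17.1). The alternatives were DESeq2 1.42.0, limma 3.58.1 (voom), other scalings, no filter, only the groups compared, each library left out, and length classes set equal (added after seeing the data). The fit was tested on simulated counts. Replicate numbers follow accession order and pair no samples. The members and gene lists were chosen with earlier results of these data known. The genes named beside the members are up to 4 per list of smallest p with gRNA, up to 3 with diet, and the 5 most alike; Eif4ebp1 was named after its values were seen, and 1 gene that the rule names is not reported here. Promoters are RefSeq's (GRCm38.p6), with near-identical copies sought with blastn 2.17.0+. Markers of hepatocytes, macrophages, Kupffer, stellate and endothelial cells, lymphocytes and cholangiocytes were summed.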

Additional observations from a re-analysis of the deposited data

Results flagged for a closer look

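Of 30 sets of libraries (10 genes in 3 groups), 2 held a library far from the rest of its group by Dixon's criterion, which chance alone exceeds in about 1 of 20. Lamtor4 was at 43.0 CPM in gRNA replicate 8, with the other 7 gRNA libraries at 21.0 to 31.1 CPM. That library also had the highest Lamtor1 level of its group (46.9 CPM), the lowest Rptor (21.3 CPM) and Tsc2 (30.8 CPM) levels, and the highest balance of short over long genes of all libraries (-0.62). Tsc2 was at 37.6 CPM in HFHF control replicate 7, with the other 6 HFHF control libraries at 32.3 to 34.5 CPM. Neither was left out of the results. The part of library preparation in either value was not tested.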

How the results depend on the processing

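Over the 30 differences (10 genes, 3 comparisons), leaving out each library in turn gave 600 values, of which 548 kept direction and call, 18 lost the call, 15 gained it and 19 changed sign. Of 210 values under the other settings, 186 kept both, 10 lost the call, 4 gained it and 10 changed sign. Calls of Tsc1 with gRNA (0.95 to 1.05 with a library left out) and with diet (-0.78 to -0.68) held in every fit run. With a library left out, 1 to 4 genes were higher in gRNA against HFHF control and 0 to 1 lower in gRNA against chow. Of all genes, 34.2 to 38.6% and 37.6 to 43.3% were called in either direction in these fits. With length classes set equal, 3 genes were higher in gRNA against HFHF control (39.2% of all genes called in either direction, 2658 of 13667 higher). In HFHF control against chow 2 were higher and 1 lower (56.0% of all genes called). The fit takes out what a length class shares.

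All sign changes were of differences that had not passed. In gRNA against HFHF control, Lamtor5 was at -0.035 under upper-quartile scaling, and with a library left out Lamtor1 ranged over -0.0072 to 0.113, Lamtor2 over -0.0588 to 0.0128 and Lamtor5 over -0.0027 to 0.044. In HFHF control against chow, Lamtor2 was at -0.069 with length classes set equal. In gRNA against chow, Rheb was at 0.028 under upper-quartile scaling, 0.0239 without a filter, 0.0042 with only the groups compared and 0.0817 with length classes set equal, and Tsc2 was at 0.0112, 0.0073 (no filter) and 0.0627 in the first, second and last of these. Lamtor2 was at -0.0893 with length classes set equal, and with a library left out Rheb ranged over -0.0288 to 0.0357 and Tsc2 over -0.0479 to 0.0343. No paired analysis was possible because the labels carry no replicate numbers. Where the cause of a change is not given by the fit's construction, the cause was not tested. At these depths differences under about 0.1 on the log2 scale lay within the intervals of most of the 10 genes.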
